A study of Mus musculus with 24 samples.

Results

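Rpl13, Ranbp1 and Tmem107 are protein-coding genes of the mouse that are paired with small nucleolar RNAs (snoRNAs). They were chosen by symbol, 3 of the 35000 genes listed in all 5 surface RNA tables and 3 of the 55335 genes in the peripheral blood mononuclear cell (PBMC) files. Every listed transcript of the genes was read, 17 in all, of which 15 stood in every surface table. Surface RNA was amplified in place from the outer membrane of fixed cells by the AMOUR assay, in which an oligonucleotide carrying a T7 promoter and a random end anneals to exposed RNA. T7 RNA polymerase then amplifies the RNA linearly. The 15 surface libraries came from C57BL/6 mice with the genotype label WT, 3 libraries for each cell type: B cells, T cells isolated with a CD8 kit and NK cells from spleen, and hematopoietic stem and progenitor cells (HSPCs) isolated by lineage depletion and monocytes from bone marrow. The 9 PBMC libraries held total RNA from blood of mice labelled wild type, 3 libraries in each of the treatment groups ct, WT and Y, names that the labels do not explain. The labels name no separate animals, so the p-values below measure only the spread between these libraries.

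Most snoRNAs of mammals lie in introns of other genes and are released by trimming of the spliced intron, so that one primary transcript gives both a messenger RNA and a snoRNA. Box C/D snoRNAs guide 2′-O-methylation of ribosomal RNA and box H/ACA snoRNAs guide pseudouridylation, both in the nucleolus, while the host messenger RNA is translated in the cytoplasm. Among the 3 genes, Rpl13 encodes a protein of the large (60S) ribosomal subunit, Ranbp1 a Ran-binding protein that helps RanGAP switch Ran off after nuclear export, and Tmem107 a membrane protein of the ciliary transition zone. Snord118, the U8 snoRNA, has its own promoter and takes part in the maturation of 5.8S and 28S ribosomal RNA.

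The snoRNAs next to or inside the genes are shown because each gene is compared with its own snoRNA below. Sequences are from the GRCm38 assembly, written on the RNA strand with T for U. Capitals in Snord118 and Snord68 mark every TGATGA and CTGA, the core letters of boxes C and D, and the capitals in Gm25777 mark an ACA placed 3 bases before the end, as in box H/ACA snoRNAs.
Snord118: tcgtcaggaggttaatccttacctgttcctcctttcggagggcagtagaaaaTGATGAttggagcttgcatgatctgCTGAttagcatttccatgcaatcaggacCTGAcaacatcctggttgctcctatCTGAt
Gm25777: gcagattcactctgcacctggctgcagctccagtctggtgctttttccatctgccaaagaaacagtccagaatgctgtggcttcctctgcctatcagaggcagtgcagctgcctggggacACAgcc
Snord68: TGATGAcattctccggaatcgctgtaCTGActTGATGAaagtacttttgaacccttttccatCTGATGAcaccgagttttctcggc
Snord118 held 1 TGATGA and 3 CTGA, and Snord68 held 3 TGATGA and 2 CTGA, of which one pair overlapped in CTGATGA. Gm25777 held neither. Of 1507 annotated snoRNA transcripts, 26.1% held TGATGA, 79.5% held CTGA, 25.2% held both, and 18.3% had ACA at that place from the end. Only the RNA strand was searched, and a match describes the letters and is not evidence of a working box.

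The positions set the 3 genes apart. Rpl13 lies on the plus strand at chr8:123102350-123105244 of GRCm38 (GENCODE M21), and Snord68, at chr8:123103038-123103123 and 86 bases long, lies in intron 3 of the 5 introns of its main transcript Rpl13-201. Its retained-intron transcript Rpl13-202 has an exon that covers all 86 bases of Snord68, and it was the only 1 of the 17 transcripts whose exons held a whole snoRNA. Ranbp1 lies on the minus strand at chr16:18239784-18248732, and Gm25777, at chr16:18240717-18240842 and 126 bases long, lies in intron 5, the last intron of Ranbp1-202. Tmem107 lies on the plus strand at chr11:69070806-69073293 and held no annotated snoRNA inside it. Snord118, at chr11:69073427-69073561 and 135 bases long, starts 134 bases past the annotated end of Tmem107, so that by this annotation Tmem107 is a neighbour of its snoRNA and not a host. Ranbp1 shares bases with Gm49776 on the same strand and with Trmt2a on the other strand. Gm49776 stayed at or below 0.0341 TPM, and Trmt2a ranged from 0.417 to 14.0 TPM. Rpl13 lies within the longer protein-coding gene Gm20388 on the same strand and holds the miRNA gene Mir7079, neither of which was listed in all 5 surface tables. The 3 listed Rpl13 pseudogenes summed to at most 2.95 TPM in any library.

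Levels are in TPM, each transcript's share of its library after division by its length, summed by gene. TPM keeps no depth, so counting error is unknown for the surface libraries. Protein-coding genes held 1.48% to 5.78% of the TPM of the 12 B cell, T cell, NK cell and HSPC libraries and 23.5% to 24.5% of the 3 monocyte libraries. Monocytes were also the only cell type sequenced on the DNB T7 platform, the others on Illumina HiSeq, so cell type and platform cannot be told apart for them. The TPM outside ribosomal RNA and 3 transcripts whose values are tied also differed between cell types. This part was 9.00% to 13.1% in HSPCs, 25.2% to 42.5% in B cells, T cells and NK cells and 48.7% to 50.1% in monocytes. Because of these shifts each comparison was repeated after quantile normalization, after rescaling without ribosomal RNA and those 3 transcripts, and after rescaling within protein-coding genes. The summed marker lists were highest in their own cell type for B cells, 898 to 1283 TPM, T cells, 32.6 to 93.5 TPM, NK cells, 67.3 to 194 TPM, and monocytes, 2418 to 2928 TPM. The B cell list also summed to 127 to 149 TPM in NK cells, against 34.4 to 52.2 TPM in monocytes. In T cells and HSPCs it reached at most 3.84 and 2.87 TPM. The HSPC list, with 60.4 to 129 TPM in HSPCs, was higher in monocytes at 264 to 410 TPM, where 4 neutrophil markers also summed to 1330 to 1441 TPM. The part of other cells in the results below was not tested, and in such bulk samples fewer cells of a type and less RNA per cell cannot be told apart.

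Rpl13 was the most abundant of the 3 genes in every surface library. Its level was 113, 70.7 and 57.4 TPM for the B cell libraries, 26.1, 60.6 and 46.3 TPM for T cells and 31.2, 51.2 and 73.7 TPM for NK cells. HSPCs had 29.7, 49.4 and 37.1 TPM and monocytes 261, 262 and 251 TPM. The 3 monocyte libraries stood above the other 12, as in 88.3% of the genes tested, and those 12 overlapped across cell types. By mean the order was monocytes, 258 ± 6.31 TPM, B cells, 80.3 ± 29.0, NK cells, 52.1 ± 21.3, T cells, 44.3 ± 17.3, and HSPCs, 38.7 ± 9.92 (SD, n = 3 each). Among neighbours in this order, B cells lay below monocytes by a log2 difference of -1.73 (limma, Benjamini-Hochberg adjusted p = 0.000484), beside 95% of genes called between them, and this turned to 0.13 after quantile normalization. B cells and NK cells differed by 0.64 (adjusted p = 0.274, limma; 23.7% of genes called), T cells and NK cells by -0.22 (0.619; 57%) and T cells and HSPCs by 0.14 (0.823; 34.1%), so these neighbours were not separated beyond their spread. After quantile normalization B cells exceeded NK cells by 0.91 (adjusted p = 0.0116, limma; 41% of genes called) and HSPCs exceeded T cells (-0.87, adjusted p = 0.0104; 56.2%). All 3 libraries exceeded 50 TPM in B cells and in monocytes, as did those of 0.789% and 2.69% of all genes. On the scale of protein-coding genes alone, the order changed to T cells, 1844 ± 143, B cells, 1818 ± 437, HSPCs, 1538 ± 95.3, monocytes, 1079 ± 44.8, and NK cells, 1076 ± 172. Rpl13 ranked between 43 and 85 of 17920 protein-coding genes by mean TPM, highest in B cells and T cells and lowest in monocytes. Among 47 genes of the 60S subunit, itself included, it ranked 7 in monocytes and 13 to 17 in the other cell types.

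Ranbp1 was below Rpl13, per length, in every surface library. Its level was 3.22, 3.54 and 3.27 TPM for the B cell libraries, 0.707, 2.20 and 1.5 TPM for T cells and 3.98, 3.88 and 6.80 TPM for NK cells. HSPCs had 3.27, 6.60 and 4.66 TPM and monocytes 31.7, 32.5 and 36.4 TPM. The monocyte libraries were above the other 12, as in 88.3% of the genes tested. The T cell libraries were below all others, as in 19.9%. Both patterns also stood after rescaling without ribosomal RNA, where the share over all genes was not computed. By mean the order was monocytes, 33.5 ± 2.47 TPM, NK cells, 4.89 ± 1.66, HSPCs, 4.84 ± 1.67, B cells, 3.34 ± 0.171, and T cells, 1.47 ± 0.749 (SD, n = 3 each). NK cells lay below monocytes by a log2 difference of -2.59, with 0.07 after quantile normalization. This difference is a description, since the monocytes put Ranbp1 over the filter used for testing, and 95% of the genes tested were called between these cell types by limma. The differences between other pairs of cell types are given as descriptions too. Ranbp1 entered the fit through the same filter, and the one fit takes its spread from all 15 libraries. NK cells and HSPCs differed by 0.02 and B cells and HSPCs by -0.39 as deposited, with overlapping libraries in each pair. Between these pairs 25.5% and 40.6% of genes were called by limma. After quantile normalization the differences were -0.70 and -1.13, beside 42.3% and 55% of genes called. B cells exceeded T cells by 0.86 as deposited, beside 47.3% of genes called by limma. This difference was 0.09 after quantile normalization, and 0.83 and 0.62 without B cell library 2 or T cell library 1. Within protein-coding genes HSPCs were highest at 189 ± 20.6, above all 12 other libraries. The share of all genes with this pattern on that scale was not computed. T cells were lowest at 59.3 ± 12.8, a range that touched that of B cells. Among 17920 protein-coding genes Ranbp1 ranked 525 in HSPCs and 942 in NK cells, before monocytes with 1194, T cells with 1667 and B cells with 1680. In a list of 26 genes of the Ran cycle that includes it, Ranbp1 ranked 2 to 4 in every cell type, and Ran itself was highest in each, from 7.98 TPM in T cells to 77.7 TPM in monocytes.

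Tmem107 was the lowest of the 3 genes in every surface library. Its level was 0.256, 0.114 and 0.157 TPM for the B cell libraries, 0.0776, 0.0512 and 0.303 TPM for T cells and 0.324, 0.702 and 0.950 TPM for NK cells. HSPCs had 0.827, 0.924 and 1.27 TPM and monocytes 9.57, 6.58 and 5.73 TPM. Monocytes were again above the other 12 libraries, as in 88.3% of the genes tested. HSPCs were above B cells and T cells, and B cells and T cells overlapped. By mean the order was monocytes, 7.29 ± 2.02 TPM, HSPCs, 1.01 ± 0.234, NK cells, 0.659 ± 0.316, B cells, 0.176 ± 0.0731, and T cells, 0.144 ± 0.138 (SD, n = 3 each). HSPCs lay below monocytes by a log2 difference of -2.03, which reversed to 0.75 after quantile normalization. Of all libraries only the 3 of monocytes held more than 5 TPM of Tmem107, the filter used for testing, so this too is a description, beside 95.8% of genes called by limma. The other pairs of cell types are descriptions for the same reason. NK cells and HSPCs differed by -0.29 as deposited and -0.72 after quantile normalization, beside 25.5% and 42.3% of genes called by limma. B cells and T cells differed by 0.04, beside 47.3% of genes called. B cells lay below NK cells by -0.48, beside 23.7% of genes called, and by -0.35 without NK library 3. Within protein-coding genes the 2 bone marrow cell types were highest and overlapped, HSPCs at 41.1 ± 10 and monocytes at 30.4 ± 8.12, against 13.3 ± 3.18 in NK cells, 6.15 ± 4.96 in T cells and 4.00 ± 1.32 in B cells. Its rank among 17920 protein-coding genes was 3635 in HSPCs and 5932 in monocytes, against 7188 for NK cells, 8466 for T cells and 9054 for B cells.

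**Figure D1:**
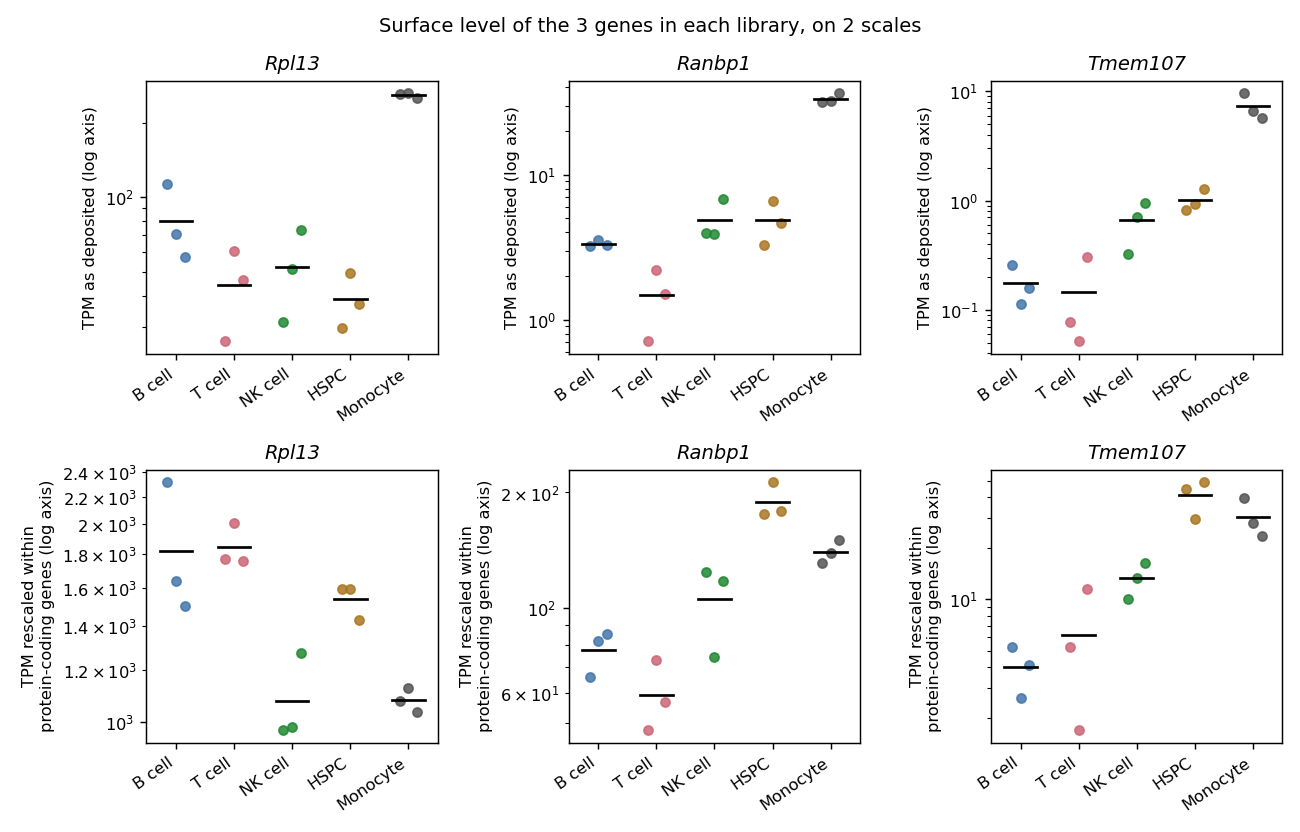
Level of Rpl13, Ranbp1 and Tmem107 in each of the 15 surface libraries (points) with the mean of each cell type (lines), on log axes, as deposited TPM (top) and as TPM rescaled within protein-coding genes (bottom). All 3 genes were highest in monocytes as deposited, whereas within protein-coding genes HSPCs had the highest mean of Ranbp1 and Tmem107 and T cells that of Rpl13.

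Each cell type was then compared with the mean of the other 4 by limma on log2(TPM + 1), over 7805 genes above 5 TPM in at least 3 libraries. Ranbp1 and Tmem107 passed that filter only through the monocytes, as did 74.5% of the genes tested, so their monocyte difference was set by the filter. The monocytes are also part of the mean set against each other cell type, and for these genes the differences from that mean as deposited and after quantile normalization are therefore descriptions, with no limma test. Tests are given on the scales where libraries of several other cell types were above the filter. These were both rescalings for Ranbp1, with 10 of the 12 other libraries above it without ribosomal RNA and 12 within protein-coding genes, and the latter alone for Tmem107, with 9 against 3 without ribosomal RNA, all of HSPCs. In monocytes the log2 difference was 2.36 ± 0.31 for Rpl13 (SE, adjusted p = 9.8e-07, limma), 3.01 ± 0.22 for Ranbp1 and 2.49 ± 0.13 for Tmem107. Rpl13 was called higher, but so were 92.1% of all genes tested, and in 88.3% of genes all 3 monocyte libraries were above the other 12. The median of all genes was 2.72, and the difference of Rpl13 exceeded 30.0% of genes, so Rpl13 stood within the general shift of the genes tested. Those of Ranbp1 and Tmem107 exceeded 65.5% and 37.1% of genes. These 2 places are descriptions, since the filter set the direction of both genes and of 74.5% of the genes tested. Quantile normalization left 0.35, -0.01 and -0.15, and within protein-coding genes Rpl13 turned to -0.50 while Ranbp1 and Tmem107 were called higher at 0.53 and 1.43 (adjusted p = 0.00783 and 0.00119, limma), beside 55.2% of genes. An exact permutation test over all choices of 3 of the 15 libraries was run on the deposited values. The monocyte difference of each of the 3 genes had the smallest possible two-sided p of 0.0022, adjusted p = 0.011 over 15 tests. On these values 88.3% of the genes tested had all 3 monocyte libraries above the other 12. The result therefore holds the same general shift and is a description.

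In T cells Ranbp1 was lower in both scalings in which it could be tested. Its log2 difference was -2.67 without ribosomal RNA (adjusted p = 2.5e-07, limma), beside 87.2% of genes called lower, and -1.03 within protein-coding genes (adjusted p = 3.7e-05, limma), beside 48.6%. As deposited it was -1.81 ± 0.22, lower than all but 8.05% of genes, and after quantile normalization -0.56. The exact permutation test on the deposited values gave p = 0.035 and an adjusted p = 0.132. As deposited, 86.7% of genes were called lower in T cells and 19.9% had all 3 T cell libraries below the other 12, with a median of -1.09. Tmem107 was also lower within protein-coding genes, at -1.53 (adjusted p = 0.00089, limma). As deposited it was at -1.05 ± 0.13, close to that median, after quantile normalization at -0.21 and without ribosomal RNA at -1.95. Rpl13, at -0.89 ± 0.31 (adjusted p = 0.0131, limma), lay above the median, lost its call without T cell library 1, at -0.55, and without the monocytes, at -0.32, and turned to 0.47 within protein-coding genes (adjusted p = 0.00553; 11.4% of genes called higher).

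In B cells Tmem107 and Ranbp1 were lower within protein-coding genes, and Rpl13 was not separated as deposited. Tmem107 had a log2 difference of -1.89 there (adjusted p = 0.000146, limma), beside 36.5% of genes called lower. As deposited it was at -0.999 ± 0.13, after quantile normalization at -0.34 and without ribosomal RNA at -1.58. Ranbp1 was at -0.53 within protein-coding genes (adjusted p = 0.00948, limma) and was not called without ribosomal RNA, at -0.62 (adjusted p = 0.051). As deposited it was at -0.73 ± 0.22. As deposited, 53.5% of genes were called lower and 9.29% higher in B cells. Rpl13 was at 0.20 ± 0.31 (adjusted p = 0.600, limma), above 84.6% of genes, and was called higher after quantile normalization, at 0.52, beside 25% of genes, within protein-coding genes, at 0.41, beside 18.5%, and without the monocytes, at 0.84. Without B cell library 1, the highest of the 3 for Rpl13, its difference was -0.08.

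In NK cells Tmem107 was at -0.40 ± 0.13 as deposited, -0.25 without NK library 1 and -0.60 without ribosomal RNA, all as descriptions. It was not called within protein-coding genes, at 0.02 (adjusted p = 0.969, limma). Ranbp1 was at -0.23 as deposited, -0.46 without ribosomal RNA (adjusted p = 0.132, limma) and -0.03 within protein-coding genes (adjusted p = 0.926). Rpl13 was not called in NK cells as deposited, at -0.61 (adjusted p = 0.118, limma), beside 40.8% of genes called lower, and it was called lower under all 3 other scalings, from -0.90 to -0.52, beside 15.6% to 42.3% of genes. In HSPCs, where 84.7% of genes were called lower and the median was -0.86, Rpl13 was called lower at -1.06 ± 0.31 (adjusted p = 0.00488, limma), while Ranbp1 and Tmem107 were at -0.24 and -0.04. The HSPC differences of Tmem107 and Ranbp1 exceeded those of 95.1% and 91.6% of genes. Within protein-coding genes both were called higher in HSPCs, Ranbp1 at 1.06 (adjusted p = 3.3e-05, limma) and Tmem107 at 1.96 (adjusted p = 0.000118), beside 31.6% of genes called higher. Without ribosomal RNA Ranbp1 was called higher at 1.45 (adjusted p = 0.000283), beside 35.2% of genes, while Tmem107 was at 1.68. After quantile normalization, where 29.2% of genes were called higher, they were at 0.95 and 0.80. Rpl13 also turned positive, from 0.14 to 0.65, but was not called (adjusted p from 0.0859 to 0.388), and without the monocytes its deposited difference was -0.50 and not called.

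**Figure D2:**
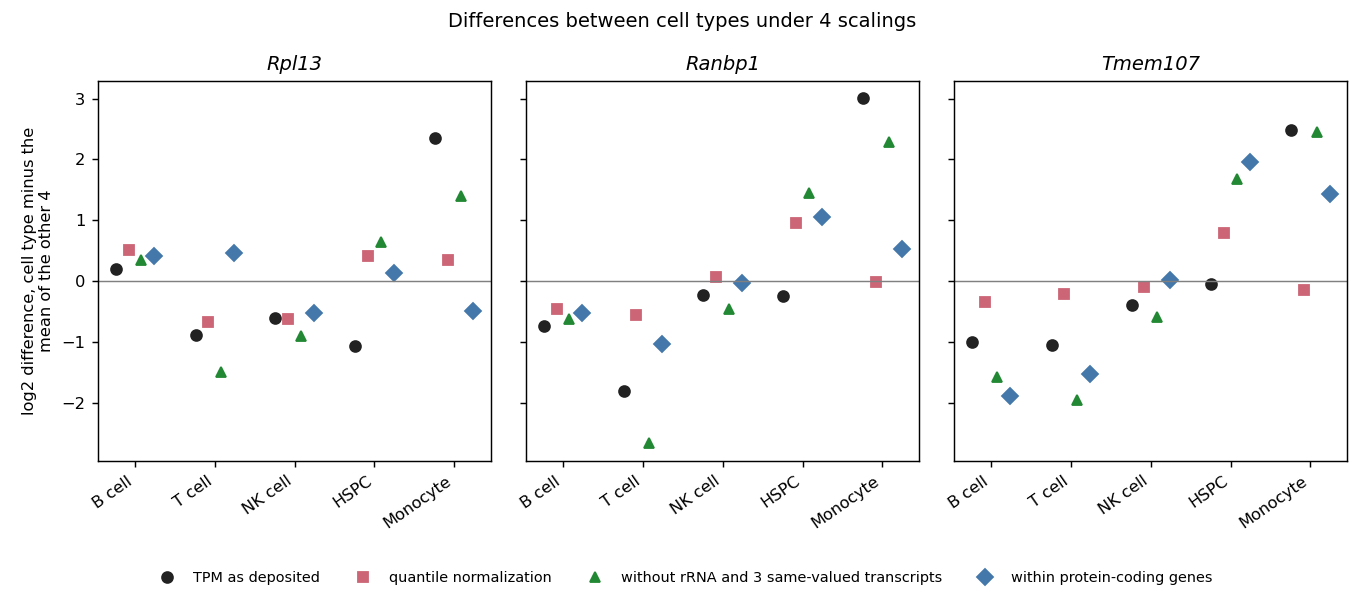
Log2 difference of each cell type from the mean of the other 4 (vertical axis) for Rpl13, Ranbp1 and Tmem107 under 4 scalings (symbols), with the zero line in grey. For HSPCs and monocytes the 4 scalings differ in sign for each gene. Values stay below 0 in T cells and B cells for Ranbp1 and Tmem107, and in NK cells for Rpl13.

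Single transcripts carried the sums unequally. Rpl13-201, the 6-exon coding transcript, held 93.4% to 98.6% of the summed TPM of Rpl13 by cell type mean, and exceeded 50 TPM in 8 libraries. Ranbp1-202, also coding, held 90.2% to 98.9% of Ranbp1. In Tmem107 no transcript dominated throughout. Coding Tmem107-201 was listed at 0 in all 3 B cell libraries, and it made up 65.1% of the sum in HSPCs, 64.4% in monocytes, 47.6% in NK cells and 37.9% in T cells. In monocytes it was at 5.24, 2.54 and 5.73 TPM, and the rest of the sum came mostly from one transcript without a defined coding sequence in library 1, at 4.34 TPM, and from another in library 2, at 4.04 TPM. The Tmem107 sum in monocytes therefore rested on different transcripts from library to library.

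Of 6994 transcripts tested, the 3 that passed the filter were Rpl13-201, Rpl13-202 and Ranbp1-202. Rpl13-202, the retained-intron form that covers Snord68, was 0.645, 1.07 and 0.879 TPM for the B cell libraries, 2.77, 3.15 and 1.49 TPM for T cells and 1.72, 1.42 and 1.59 TPM for NK cells. HSPCs had 0.568, 0.753 and 0.683 TPM and monocytes 9.22, 8.31 and 8.44 TPM. It passed the filter only through the monocytes, which stood above the other 12 libraries. Against the mean of the other 4 its log2 difference as deposited was -0.89 ± 0.15 in B cells, -1.09 ± 0.15 in HSPCs and 0.20 in T cells, and after quantile normalization -0.43, -0.33 and 1.39, all as descriptions. Without ribosomal RNA and within protein-coding genes, 5 and 12 of the 12 other libraries were above the filter. There it was lower in B cells, at -0.996 (adjusted p = 0.000487, limma; 37.8% of transcripts called lower) and -1.10 (0.0168; 17.5%). In HSPCs it was not called, at -0.08 and -0.56 (adjusted p = 0.739 and 0.225, limma). In T cells it was not called without ribosomal RNA, at -0.12 (adjusted p = 0.545, limma), and higher within protein-coding genes, at 1.83 (0.000576; 8.16% of transcripts called higher). Rpl13-201 in T cells was at -0.94 (0.0141; 83.9% of transcripts called lower, and 0.41 within protein-coding genes).

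The share of Rpl13 in Rpl13-202 does not depend on the scaling of a library. Rpl13-202 and Snord68 have all 86 bases of the snoRNA in common, so reads may be divided between them. The part of such reads in the share was not tested. It was 0.571%, 1.52% and 1.53% for the B cell libraries, 10.6%, 5.20% and 3.22% for T cells and 5.50%, 2.76% and 2.15% for NK cells. HSPCs had 1.91%, 1.53% and 1.84% and monocytes 3.52%, 3.17% and 3.36%. T cells held the highest mean, 6.34 ± 3.82%, but overlapped with NK cells and monocytes, and B cells held the lowest, 1.21 ± 0.551% (SD, n = 3 each). The T cell share exceeded the mean of the other libraries by 3.90 percentage points (exact permutation test, two-sided p = 0.0176, adjusted p = 0.0879 over 5 tests), a difference that did not pass the threshold. Without NK library 1 it was 4.17 points (adjusted p = 0.0412, exact permutation test), and without T cell library 1, whose share was the highest, it was 1.76 points (adjusted p = 0.302). The other 4 cell types had an adjusted p between 0.247 and 0.947. The low total of Rpl13 in T cell library 1, 26.1 TPM, stood beside its high share.

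**Figure D3:**
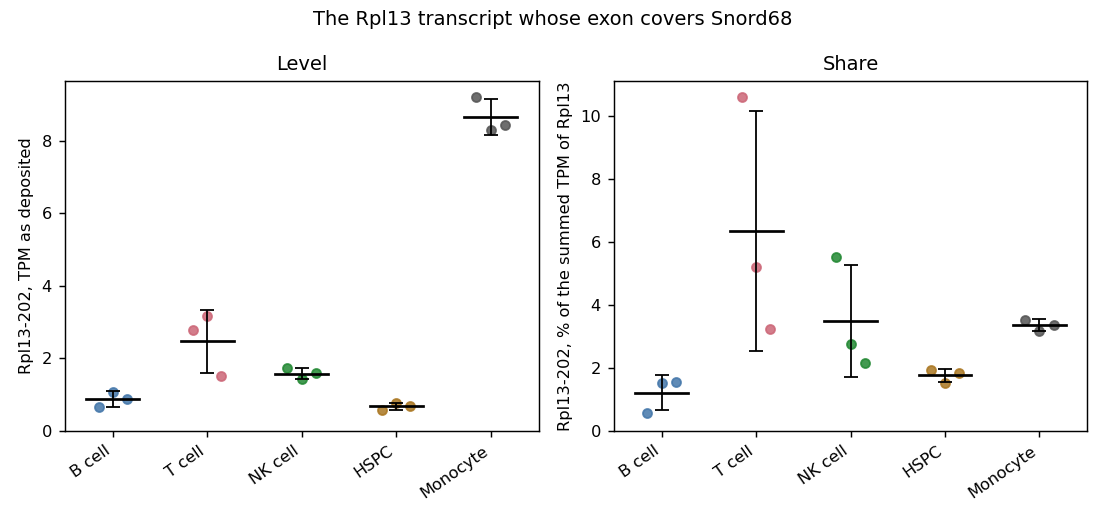
Rpl13-202 in each surface library (points) with the mean (lines) and SD (bars) of each cell type, as TPM (left) and as percent of the summed TPM of Rpl13 (right). Monocytes are highest by level, from 8.31 to 9.22 TPM, whereas the share is highest and most spread in T cells, from 3.22% to 10.6%.

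Next to its gene, each snoRNA kept a level of its own. Snord118 was 2514, 3317 and 3441 TPM for the B cell libraries, 4845, 5552 and 4268 TPM for T cells and 4248, 3075 and 3163 TPM for NK cells. HSPCs had 404, 582 and 478 TPM and monocytes 1941, 1751 and 2051 TPM. On this scale the T cell libraries were above, and the HSPC libraries below, all others, a pattern held by 1.68% and 8.21% of genes. Its log2 difference was 1.46 ± 0.18 in T cells (adjusted p = 1.0e-06, limma; 6.02% of genes called higher) and -2.70 ± 0.18 in HSPCs (3.7e-09; 6612 of 7805 genes called lower). Both differences kept their direction after quantile normalization, at 0.40 and -0.83, and without ribosomal RNA, at 0.85 and -0.98. Without ribosomal RNA the monocytes, 3632 to 4212, were below the HSPCs, 4378 to 4496. In B cells and NK cells it was higher by 0.63 (adjusted p = 0.00630, limma; 9.29% of genes) and 0.84 (0.00132; 5.5% of genes). It was also called higher in both after quantile normalization, beside 25% and 11.5% of genes, and kept its direction without ribosomal RNA. Monocytes, at -0.23 (adjusted p = 0.233, limma; 3.63% of genes called lower), were called lower under both of these scalings, at -0.47 and -1.21. On these scales 2693 of 7805 and 719 of 10782 genes were called lower.

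Snord68, inside Rpl13, was 2.10, 6.03 and 14.5 TPM for the B cell libraries, 22.9, 18.0 and 15.9 TPM for T cells and 3.76, 13.3 and 8.69 TPM for NK cells. HSPCs had 2.06, 2.12 and 0.443 TPM and monocytes 19.2, 10.53 and 8.96 TPM. T cells and HSPCs did not overlap, and B cells ranged nearly from one to the other. It was higher in T cells by a log2 difference of 1.57 ± 0.40 (adjusted p = 0.00128, limma; 470 of 7805 genes called higher). In HSPCs Snord68 was lower by -2.23 ± 0.40 (8.5e-05; 6612 of 7805 genes called lower), and without ribosomal RNA the HSPC call was lost at -1.18 (adjusted p = 0.0783). In monocytes it was at 0.86 (adjusted p = 0.0497, limma; 7187 of 7805 genes called higher), lost in 12 of 15 fits that left out one library and reversed to -1.78 after quantile normalization. Gm25777, inside Ranbp1, was 5.24, 6.07 and 0.494 TPM for the B cell libraries, 4.10, 5.09 and 4.96 TPM for T cells and 7.79, 6.83 and 5.78 TPM for NK cells. HSPCs had 6.01, 9.43 and 6.41 TPM and monocytes 9.09, 27.2 and 4.18 TPM. Of its 5 tests 0 were called as deposited by limma and 1 had an unadjusted p under 0.05, with the largest differences -0.99 in B cells and 0.88 in monocytes (adjusted p = 0.0527 and 0.0563), while without ribosomal RNA it was called higher in HSPCs, at 2.04 (adjusted p = 0.00656; 3797 of 10782 genes called higher). Without B cell library 1 or 2 or monocyte library 3 it was called lower in B cells, at -1.30, -1.39 and -1.13, and higher in monocytes, at 0.96, 0.98 and 1.45 (adjusted p from 0.00897 to 0.0383, limma). B cell library 3 was low, and monocyte library 2 high, beside their replicates.

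The ratio of each snoRNA to its gene compares them within a library, on the scale of log2 of (TPM + 1) over (TPM + 1). Snord118 exceeded Tmem107 by 12.06 ± 0.35 in T cells, 11.35 ± 0.33 in B cells and 11.04 ± 0.53 in NK cells, and by 7.92 ± 0.28 in HSPCs and 7.88 ± 0.37 in monocytes (SD, n = 3 each). The 6 bone marrow libraries, from 7.52 to 8.25, lay below the 9 spleen libraries, from 10.66 to 12.37. Snord68 was below Rpl13 in all 15 libraries, by -4.29 ± 0.52 in monocytes, -4.02 ± 0.70 in HSPCs, -3.49 ± 1.65 in B cells, -2.53 ± 0.57 in NK cells and -1.12 ± 0.82 in T cells. Gm25777 was near Ranbp1, at 1.25 ± 0.33 in T cells, 0.52 ± 0.17 for HSPCs, 0.43 ± 0.55 for NK cells, -0.10 ± 1.22 for B cells and -1.60 ± 1.30 for monocytes. T cells had the highest ratio for all 3 pairs and monocytes the lowest. For Snord118 the HSPCs and monocytes overlapped on this scale, but only because 1 TPM is added. Tmem107 was at 0.827 to 1.27 TPM in HSPCs and 5.73 to 9.57 TPM in monocytes, so the addition lowers the HSPC ratio more. Without it every HSPC library would lie above every monocyte library. In B cells, T cells and NK cells Tmem107 was below 1 TPM throughout, so their ratios to it are lowered further.

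These pairs were set beside 243 other pairs of a snoRNA inside a protein-coding gene, over 166 hosts in the same annotation. A snoRNA exceeded its host in 67.9% of pairs in T cells, 56.4% in NK cells, 45.3% in B cells, 42.8% for HSPCs and 33.7% for monocytes, so T cells were highest and monocytes lowest over all pairs as well. The ratio of Gm25777 to Ranbp1 lay near the middle, above 71.2% of pairs in HSPCs, 60.1% for B cells, 52.3% for NK cells, 48.1% for T cells and 39.9% for monocytes. The ratio of Snord68 to Rpl13 was among the low ones, above 0.823% of pairs in HSPCs and at most 9.88% in any cell type, the T cells. Of the pairs, 0 had a higher ratio than Snord118 to Tmem107 in B cells, T cells, NK cells and HSPCs, and 1 had in monocytes.

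**Figure D4:**
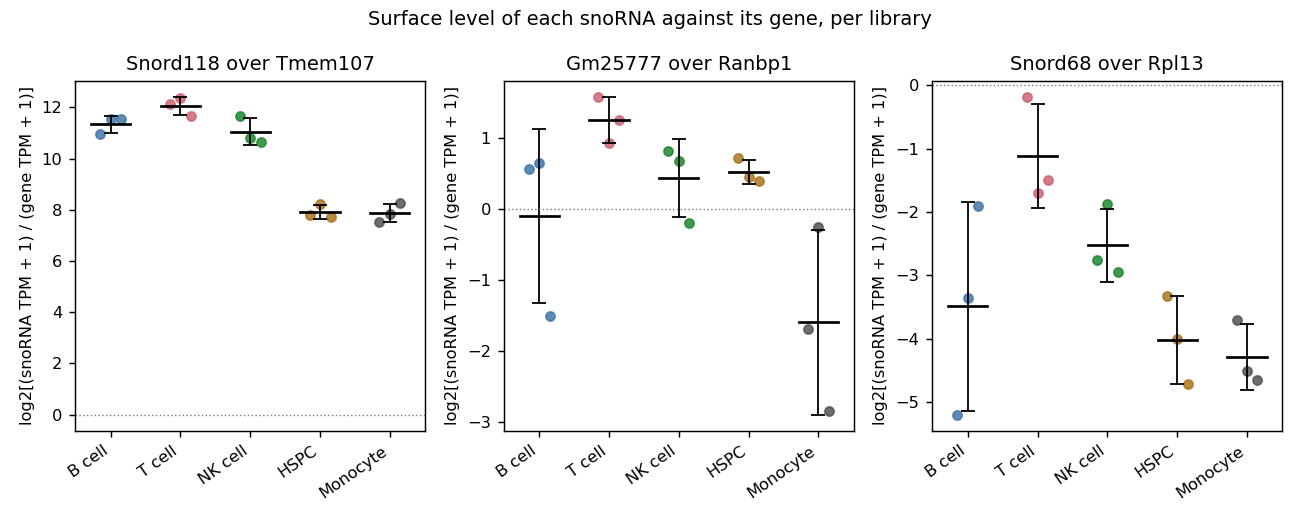
Log2 ratio of each snoRNA to its gene, (TPM + 1) over (TPM + 1), in each surface library (points) with the mean (lines) and SD (bars) of each cell type. Snord118 exceeds Tmem107 in all 15 libraries, with HSPCs and monocytes from 7.52 to 8.25 and the other 3 cell types from 10.66 to 12.37, whereas Snord68 stays below Rpl13 throughout.

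The genes whose pattern over the 15 libraries was most like each gene were searched among 1645 genes with a mean above 10 TPM, by Pearson correlation of log2(TPM + 1). The libraries share the shift of protein-coding RNA in monocytes, so high values are common and are a description. Nearest to Rpl13 were Rps27a, a ubiquitin fusion of the small ribosomal subunit (r = 0.990), Rpl23a of the 60S subunit (0.987) and Psmb8, an immunoproteasome subunit (0.985). Nearest to Ranbp1 were Cox5b, a subunit of cytochrome c oxidase (r = 0.994), Hint1, a nucleotide hydrolase (0.993), and Set, a histone chaperone (0.992). Nearest to Tmem107 were Gsr, glutathione reductase (r = 0.989), Thbs1, the secreted glycoprotein thrombospondin (0.987), and Nfe2, a transcription factor of megakaryocytes and erythroid cells (0.987). Gsr had a mean of 121 TPM in monocytes, 3.14 in HSPCs, 1.49 in NK cells, 0.298 in T cells and 0.209 in B cells, the order of Tmem107 but for the last pair.

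Of 46 other genes of the 60S subunit tested in monocytes, 45 were called higher, all but Rplp1, beside 92.1% of all genes, with a median log2 difference of 2.03 beside 2.72 over all genes, and the median turned to -0.44 after quantile normalization and -0.79 within protein-coding genes. After quantile normalization 12 were higher and 23 lower, beside 32.7% and 34.5% of all genes, and within protein-coding genes 3 were higher and 35 lower, beside 55.2% and 14%. Without ribosomal RNA the median stayed positive at 1.10, with 37 higher and 1 lower, beside 9253 and 719 of 10782 genes. Rpl24 had the largest change, from 9.13 TPM on average in the other libraries to 134 ± 6.77 TPM (SD, n = 3), and Rpl15 reached 151 ± 19.3 TPM. In HSPCs 38 of 46 were lower beside 84.7% of all genes, with a median of -0.98 that turned positive under the 3 other scalings, from 0.21 to 0.71. There 0 were lower by limma, and 29 were higher after quantile normalization, beside 29.2% of all genes, 24 without ribosomal RNA, beside 35.2%, and 15 within protein-coding genes, beside 31.6%. In T cells 29 of 46 were lower beside 86.7% of all genes, with a median of -0.94, and within protein-coding genes 25 were higher and 5 lower, beside 11.4% and 48.6% of all genes, with a median of 0.39. After quantile normalization 3 were higher and 20 lower, beside 1830 and 2371 of 7805 genes, with a median of -0.46. Without ribosomal RNA 43 were lower, beside 9405 of 10782 genes, with a median of -1.56. As deposited, Rpl36 was at 41.9 ± 15.9 TPM in HSPCs and Rpl41 at 14.6 ± 5.59 TPM in T cells. Each was below all libraries of the other cell types, as were 8.21% and 19.9% of all genes tested. In B cells 5 were higher, Rpl19, Rpl30, Rpl22 and Rpl13a among them, and 2 lower, Rpl15 and Rpl37, beside 9.29% and 53.5% of all genes. After quantile normalization 25 were higher and 1 lower, beside 25% and 28.3% of all genes, and within protein-coding genes 25 higher and 3 lower, beside 18.5% and 36.5%. In NK cells 2 were lower, Rpl12 among them, beside 40.8% of all genes. There 10 were lower after quantile normalization, beside 18.4% of all genes, 21 without ribosomal RNA, beside 42.3%, and 20 within protein-coding genes, beside 15.6%. Rpl19 was 150 ± 5.21 TPM in B cells and Rpl12 was 6.99 ± 1.29 TPM in NK cells.

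The Ran cycle list holds exchange and activating factors of Ran and its import and export receptors. Of its 25 genes other than Ranbp1, 24 exceeded 5 TPM in a monocyte library and 1 to 3 in a library of any other cell type, and 22 of the 23 genes tested as deposited passed the filter only through the monocytes. Their counts are therefore given without ribosomal RNA and within protein-coding genes, where all 25 passed without the monocytes. In monocytes 24 were higher without ribosomal RNA, beside 85.8% of all genes, and 15 were higher and 2 lower within protein-coding genes, beside 55.2% and 14%. The importin Kpna2 was at 68.5 ± 3.37 TPM and the exportin Xpo1 at 26.7 ± 3.04 TPM in monocytes as deposited. In T cells 25 were lower without ribosomal RNA, beside 87.2% of all genes and with a median log2 difference of -2.22, and 17 were lower within protein-coding genes, beside 48.6% and with a median of -0.67. As deposited, Kpna2 was at 0.463 ± 0.209 TPM and the Ran GTPase activator Rangap1 at 0.630 ± 0.240 TPM in T cells. In B cells 12 were lower without ribosomal RNA, beside 36.1% of all genes, and 15 within protein-coding genes, beside 36.5%, with medians of -0.58 and -0.51. Rcc1, the nuclear exchange factor of Ran, was at 0.533 ± 0.118 TPM in B cells. In HSPCs 19 were higher without ribosomal RNA, beside 35.2% of all genes, and 17 were higher and 1 lower within protein-coding genes, beside 31.6% higher, with medians of 1.13 and 0.83. In NK cells 5 were lower without ribosomal RNA, beside 42.3% of all genes, and 2 were higher within protein-coding genes, beside 11.4%. Of the 18 genes of the ciliary transition zone other than Tmem107, 1 passed the filter as deposited, B9d2, and only through the monocytes. It was at 13.0 ± 1.23 TPM in monocytes and 0.447 ± 0.166 TPM in T cells. Within protein-coding genes 11 passed, 3 of them only through the monocytes. Of these 11, 9 were lower and 2 higher in T cells, beside 48.6% and 11.4% of all genes, and 5 lower and 1 higher in B cells, beside 36.5% lower. In HSPCs 6 were higher and 1 lower, beside 31.6% higher, in monocytes 4 and 1, beside 55.2% and 14%, and in NK cells 2 and 1, beside 11.4% higher. The filter set the monocyte direction of 3 of the 11. The monocytes are also part of the mean set against each other cell type, so the counts of this list are a description. Tmem107 was second to B9d2 among the 19 genes of the zone in HSPCs and monocytes as deposited.

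A further list held 40 protein-coding hosts of snoRNAs, many of them ribosomal protein genes of the list above, and 5 of them passed the filter only through the monocytes. The monocytes are part of the mean set against each other cell type. As deposited and after quantile normalization, the calls of these 5 in any cell type are therefore descriptions. In monocytes 40 were higher, among them the 5 whose direction the filter set, beside 92.1% of all genes, with a median of 2.32 (-0.06 after quantile normalization and -0.49 within protein-coding genes, where 13 and 10 were higher and 19 and 23 lower), led by the translation factor Eif4g2 at 152 ± 18.1 TPM and the chaperone Hspa8 at 302 ± 12.6 TPM. Without ribosomal RNA all 40 passed the filter without the monocytes. There the median was 1.38, with 36 higher and 0 lower, beside 9253 and 719 of 10782 genes. In T cells 30 were lower beside 86.7% of all genes, with a median of -1.21 (-0.03 within protein-coding genes, where 13 were higher and 13 lower, beside 11.4% and 48.6% of all genes). After quantile normalization 4 were higher and 20 lower, beside 1830 and 2371 of 7805 genes. Without ribosomal RNA 39 were lower, beside 9405 of 10782 genes. In HSPCs 23 were lower beside 84.7% of all genes, with a median of -0.74 that turned positive under the 3 other scalings, from 0.47 to 0.97. There 29 were higher after quantile normalization, beside 29.2% of all genes, 29 without ribosomal RNA, beside 35.2%, and 23 higher and 2 lower within protein-coding genes, beside 31.6% and 20.3%. Rps2 of the small ribosomal subunit was 14.3 ± 6.97 TPM in T cells. In B cells 5 were higher, Snx5, Rpsa, Rpl30, Rps3 and Rpl13a, and 14 lower, with a median of -0.16 that turned to between 0.01 and 0.08 under the other scalings. There 15 were higher and 12 lower after quantile normalization, beside 1951 and 2210 of 7805 genes. Without ribosomal RNA these were 8 and 9, beside 1273 and 3889 of 10782 genes. Within protein-coding genes they were 15 and 16, beside 2048 and 4034 of 11045 genes. In NK cells 3 were lower, Rpsa, Tpt1 and Rpl12, with a median of -0.41. In NK cells 8 were lower and 4 higher after quantile normalization, beside 18.4% and 11.5% of all genes, 18 lower without ribosomal RNA, beside 42.3%, and 16 lower and 2 higher within protein-coding genes, beside 15.6% and 11.4%. The sorting nexin Snx5 was 26.7 ± 9.05 TPM in B cells and 2.70 ± 0.883 TPM in T cells. In B cells 9.29% of all genes were higher and 53.5% lower, and in NK cells 40.8% were lower. The lists were chosen with results of these data known, so their counts are a description.

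In PBMC total RNA the 3 genes kept their order, per length. The 9 libraries held 4686426 to 9055797 estimated counts, of which 50.5% to 57.1% were ribosomal RNA. Rpl13 had 2474, 2030 and 3247 counts in the ct libraries, against 3223, 2464 and 2246 for WT and 1727, 2904 and 3245 for Y. Ranbp1 had 26, 22 and 20 counts in the ct libraries, against 39, 25 and 27 for WT and 10, 25 and 23 for Y. Tmem107 had 2, 0 and 2 counts in the ct libraries, against 4, 2 and 0 for WT and 1, 3 and 2 for Y, too few to be tested, and a count of 0 allows up to 3 counts, or 0.440 and 0.331 CPM (counts scaled to a common library total) in the libraries ct 2 and WT 3. Rpl13 was at 61.4 to 80.5 TPM, Ranbp1 at 0.54 to 1.26 TPM and Tmem107 at 0 to 0.34 TPM, and the groups overlapped for Rpl13 and Tmem107. Ranbp1, on 10 to 39 counts, was at 1.04 to 1.26 TPM in WT, 0.74 to 1.02 TPM in ct and 0.54 to 0.87 TPM in Y. By CPM the 3 groups overlapped. The share of all genes with WT apart by TPM was not computed, so these ranges are a description.

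No difference of Rpl13 or Ranbp1 between the PBMC groups passed the threshold in edgeR's quasi-likelihood test with Benjamini-Hochberg adjustment over 11635 genes. Rpl13 was at 332 ± 71.2 CPM in ct, 316 ± 67.5 CPM in WT and 406 ± 48.7 CPM in Y (SD, n = 3 each). Its log2 difference was -0.003 between WT and ct (SE 0.11), 0.25 ± 0.11 between Y and ct (adjusted p = 0.515, edgeR) and 0.26 ± 0.11 between Y and WT (adjusted p = 0.360). For Ranbp1 these were 0.37 ± 0.23, -0.01 ± 0.25 and -0.38 ± 0.24 (adjusted p from 0.586 to 1, edgeR). Of these 6 tests, 2 had an unadjusted p under 0.05 and 0 were called, by edgeR or by DESeq2, beside 2.36%, 0.705% and 1.25% of all genes called by edgeR in WT against ct, Y against ct and Y against WT. The snoRNAs had 664 to 1554 counts of Snord118, 262 to 606 of Snord68 and 91 to 197 of Gm25777. Of their 9 tests 0 were called by edgeR or DESeq2 and 5 had an unadjusted p under 0.05, with the largest difference for Snord118 in Y against ct, 0.61 ± 0.16 (adjusted p = 0.140, edgeR), which was called without ct library 3, at 0.91. In WT against ct, Snord118 and Gm25777 were also called without ct library 3, at 0.71 and 0.73, and Snord68 without WT library 1, at 0.48 (adjusted p from 0.00309 to 0.0245, edgeR).

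In contrast to the surface, Snord68 exceeded Rpl13 in PBMC RNA, by 5.00 ± 0.14 on the same log2 ratio of TPM, and Gm25777 exceeded Ranbp1 by 6.66 ± 0.27 (SD, n = 9). For Snord118 over Tmem107 the value was 10.17 ± 0.24, read only as a lower limit. Tmem107 was at 0 to 0.34 TPM there, so the added 1 TPM sets most of the denominator. These TPM rest on effective lengths of 6.14 to 10.51 bases for Snord68, 21.5 to 33.0 for Gm25777 and 26.5 to 39.8 for Snord118, and on another protocol and other tools than the surface values, so the surface and PBMC libraries were set side by side and not tested. By counts alone Snord68 was below Rpl13 in all 9 libraries. Among the related lists, the exportin Xpo7, named after its values were seen, was called lower in WT and in Y against ct by edgeR but not by DESeq2 (24 Ran cycle genes tested), and the call in Y against ct was lost with the replicate number as a block. In the same edgeR fit and in DESeq2, 0 of 46 genes of the 60S subunit, 0 of 40 other hosts and 0 of 6 tested transition zone genes were called in any of the 3 comparisons. Without a filter on low counts edgeR called 2 genes of the 60S subunit and 7 other hosts in Y against ct, and 3 and 10 in Y against WT, and in a fit of the 6 libraries compared it called 1 and 4 in Y against WT. Over all genes these fits called 0.869% in Y against ct and 1.24% in Y against WT without a filter, and 1.68% in the fit of 6 libraries. At an unadjusted p under 0.05 the counts were 1, 6 and 8 genes of the 60S subunit, 1, 11 and 13 other hosts and 1, 0 and 1 transition zone genes, in WT against ct, Y against ct and Y against WT (edgeR), beside 11.8%, 8.61% and 11.7% of all genes.

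**Figure D5:**
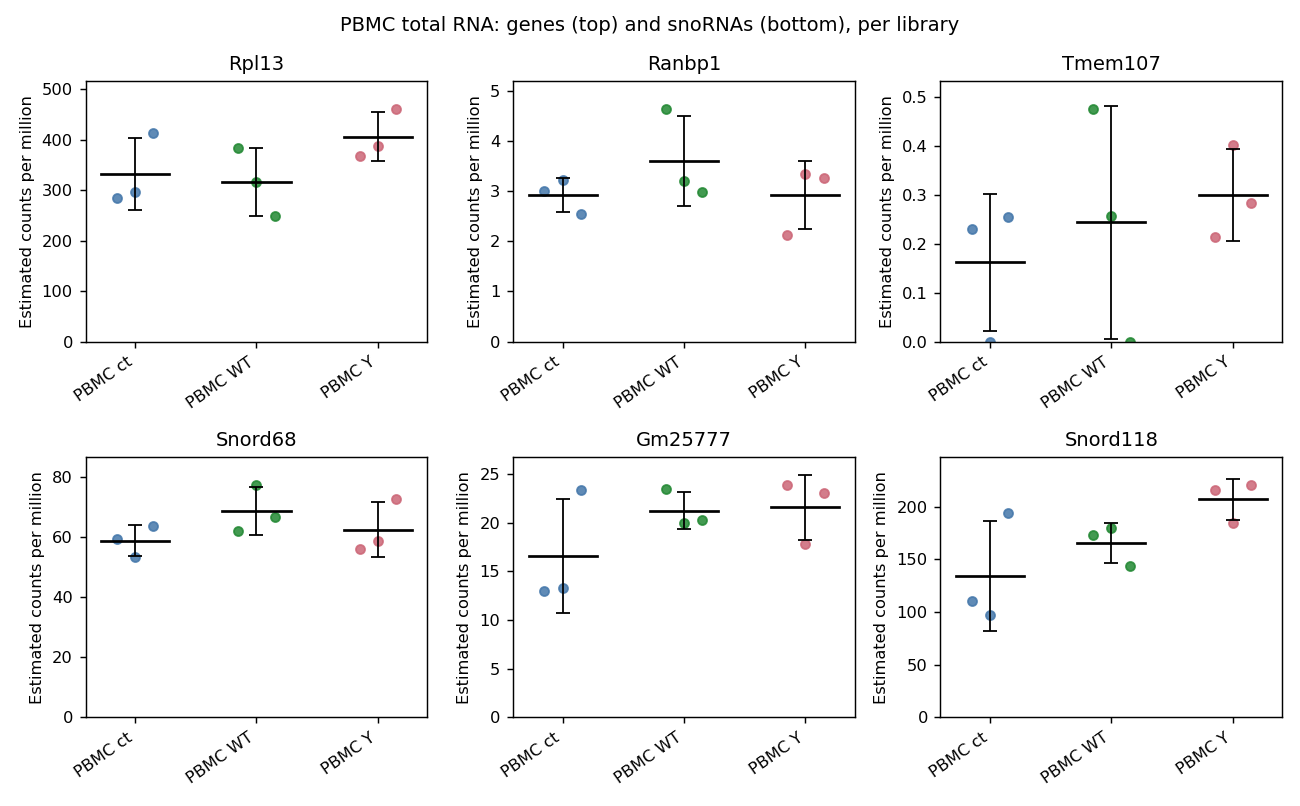
Estimated counts scaled to a common total (CPM) of the 3 genes (top) and of the 3 snoRNAs (bottom) in each PBMC library (points), with the mean (lines) and SD (bars) of the groups ct, WT and Y. The groups overlap for Rpl13, between 248 and 461 CPM, and for Ranbp1, between 2.13 and 4.63 CPM, and Tmem107 stays below 1 CPM.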

How the data were processed

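Surface RNA was measured in 15 libraries and PBMC total RNA in 9. The authors trimmed the surface reads, removed duplicates by the random barcode and estimated TPM per transcript with Kallisto. Their methods name a human transcriptome, while the tables list mouse transcripts. The deposited PBMC files hold expected counts from RSEM, rounded here to whole numbers. The build of the surface tables is not given in the sources used here.

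TPM were summed by gene symbol. Genes above 5 TPM in at least 3 libraries were compared on log2(TPM + 1) with limma 3.58.1 (mean-variance trend, one fit over the 15 libraries), and PBMC counts with edgeR 4.0.16, quasi-likelihood with TMM after filterByExpr, in R 4.3.3. Adjusted p-values are Benjamini-Hochberg over all features tested, with a threshold of 0.05, and permutation tests were exact and two-sided. Both fits were tested on simulated data. Positions and sequences came from GRCm38 with GENCODE M21, to which all 17 transcripts matched without their version number. The alternatives were other pseudocounts, filters and scalings, DESeq2 1.42.0, a replicate block, and leaving out each library.

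The members and lists were chosen with earlier results of these data known. Named beside the 3 genes and their snoRNAs are the 3 genes most correlated with each, among those with a mean above 10 TPM, and in each list up to 2 called genes with the largest change per comparison. No libraries held identical values (0 pairs). Depth is unknown for TPM, and the PBMC limit for a count of 0 covers counting error only. One gene of the 60S list is not reported here.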

Additional observations from a re-analysis of the deposited data

How the results depend on the processing

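Of the 236 values of gene sums under other settings, 176 kept direction and side of the threshold, 22 lost and 15 gained a call and 23 reversed, and for the 435 values with one library left out these were 408, 14, 8 and 5. For the pairs of cell types they were 29, 6, 5 and 8 of 48, with 148, 12, 0 and 8 of 168 for one library left out. For transcripts they were 79, 11, 11 and 13 of 114, and for PBMC counts 80, 0, 3 and 6 of 89. The cause was not tested. Without any one monocyte library Tmem107 and Rpl13-202 failed the filter, and above 50 TPM or without the monocytes Tmem107 and Ranbp1 were not tested. Calls of Tmem107, Ranbp1, Ranbp1-202 and Rpl13-202 on deposited or quantile-normalized values, and of Tmem107 without ribosomal RNA, rest on a filter passed only through the cell types where they are high and are counted here as descriptions. TPM holds no depth, so detection limits are unknown, and PBMC counts of Tmem107 were too low to test.

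Values are log2 differences of one cell type from the mean of the rest unless a pair is named. Quantile normalization gave for Rpl13 0.52 in B cells, -0.62 in NK cells, 0.42 in HSPCs, 0.35 in monocytes, -0.87 for T cells against HSPCs and 0.13 for B cells against monocytes. For Ranbp1 it gave 0.074 in NK cells, 0.95 in HSPCs, -0.014 in monocytes, -0.70 for NK cells against HSPCs and 0.070 against monocytes. For Tmem107 it gave -0.21 in T cells, -0.10 in NK cells, 0.80 in HSPCs, -0.15 in monocytes, -0.10 for B cells against T cells and 0.75 for HSPCs against monocytes. For the snoRNAs it gave 0.15 for Snord68 in B cells, 0.66 for Gm25777 in T cells, and -1.84 for Gm25777 and -1.78 for Snord68 in monocytes. For transcripts it gave 0.47 for Rpl13-201 and 0.90 for Ranbp1-202 in HSPCs, 0.071 for Ranbp1-202 and 0.10 for Rpl13-202 in NK cells, and -0.73 for Rpl13-202 in monocytes.

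Without ribosomal RNA, HSPCs were at 0.65 for Rpl13, 1.45 for Ranbp1, 1.68 for Tmem107, 0.67 for Rpl13-201 and 1.35 for Ranbp1-202. Ranbp1 was at -0.62 in B cells and -1.53 for NK cells against HSPCs, Rpl13 at -0.90 in NK cells and -1.71 for T cells against HSPCs, Gm25777 at -0.020 and Snord68 at -0.049 in NK cells, and Rpl13-202 at -0.12 in T cells. Within protein-coding genes, Rpl13 was at 0.47 in T cells, 0.41 in B cells, -0.52 for NK cells, 0.14 for HSPCs and -0.50 for monocytes, Ranbp1 at 1.06 in HSPCs, and Tmem107 at 0.024 in NK cells and 1.96 in HSPCs. There, Rpl13-201 was at 0.41 in T cells, 0.16 in HSPCs and -0.50 in monocytes, Ranbp1-202 at 0.95 in HSPCs and Rpl13-202 at -0.041 in monocytes.

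With a pseudocount of 0.1, Ranbp1 was at -0.75 in B cells, and Tmem107 at 0.56 in HSPCs and -0.22 in NK cells. With a pseudocount of 5, Ranbp1 was at -0.29 in HSPCs and -0.28 in NK cells and Snord68 at -0.029 in NK cells. Without a filter Tmem107 in NK cells lost its call at -0.40. The exact permutation test called none of the differences of Ranbp1 in B cells (-0.73) and T cells (-1.81), of Rpl13 in T cells (-0.89) and HSPCs (-1.06), and of Tmem107 in NK cells (-0.40), B cells (-0.999) and T cells (-1.05). Without the monocytes Rpl13 was at 0.84 in B cells, -0.50 in HSPCs and -0.32 in T cells.

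PBMC differences near 0 changed sign. Rpl13 in WT against ct was 0.00095 with upper-quartile scaling, 0.0085 without ribosomal RNA genes, 0.0058 with the replicate block and 0.00092 in a fit of the 6 libraries compared, and Ranbp1 in Y against ct was 0.0026 without ribosomal RNA genes and 0.0010 in that fit. The share of Rpl13 in Rpl13-202 in monocytes was -0.0087 points with 0.1 TPM added. Genes called between the PBMC groups were 275, 82 and 146 by edgeR and 169, 70 and 96 by DESeq2 (WT against ct, Y against ct, Y against WT).

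With one library left out, Rpl13 ranged from -0.076 to 0.41 in B cells (below 0 without B cell library 1), -1.15 to -0.55 in T cells (call lost without T cell library 1), -0.89 to -0.29 in NK cells (called without T cell library 1 or NK library 3), -0.12 to 0.47 for T cells against HSPCs and -0.54 to 0.11 for T cells against NK cells. Ranbp1 ranged from -0.20 to 0.23 for NK cells against HSPCs and 0.62 to 1.07 for B cells against T cells. Tmem107 ranged from -0.13 to 0.026 in HSPCs (above 0 without HSPC library 1), -0.52 to -0.25 in NK cells (call lost without NK library 1), -0.013 to 0.14 for B cells against T cells and -0.63 to -0.35 for B cells against NK cells. Snord68 ranged from -0.88 to 0.28 in B cells and -0.26 to 0.53 in NK cells, and Rpl13-201 from -0.041 to 0.45 in B cells. In PBMCs Rpl13 ranged from -0.076 to 0.14 in WT against ct, Ranbp1 from -0.13 to 0.10 and Snord68 from -0.027 to 0.083 in Y against ct, and Gm25777 from -0.22 to 0.0070 in Y against WT. The share in Rpl13-202 ranged from 1.76 to 5.46 points in T cells, -0.71 to 0.98 in NK cells and -0.082 to 0.83 in monocytes.

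The replicate numbers did not pair the libraries: of 30 pairs of surface libraries with one number, 4 had deviations correlated over 0.1 (median 0.013), and of 9 PBMC pairs 0 had. The replicate block left the differences of Rpl13, Ranbp1 and Tmem107 in each cell type on their side of the threshold. It ended the call of Snord68 in monocytes (adjusted p = 0.0618, limma), while Gm25777 was called in B cells (0.0232) and monocytes (0.0253).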
